A study of Homo sapiens with 4 samples.

Results

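The nascent RNA of 10 target genes of the transcription factor p53 was compared between HCT116 cells with and without the cohesin subunit RAD21. The genes CDKN1A, MDM2, BTG2, BBC3, FAS, TP53I3, TP53INP1, ZMAT3, RRM2B and SESN1 were taken by symbol from a deposited table of 60048 human genes, in which each symbol occurred once, and all 10 passed the filter on low values. HCT116 is a human colorectal carcinoma line with working p53. All cells carried the genotype RAD21-mAC, in which a degron tag on RAD21 lets auxin trigger destruction of the protein, so the control cells carry the tag too. Each group had 2 libraries: control cells were given DMSO, and the auxin cells were kept for 3 h in 0.5 mM indole-3-acetic acid, which depletes RAD21. Both groups were labelled with 0.5 mM 5-ethynyl uridine (EU) for 20 min before labelled RNA was captured, after labelled RNA of fly S2 cells had been added to each, and sequenced (EU-seq). The labels do not say whether the 2 libraries of a group came from separate cultures, so the p-values measure only the spread between these libraries, which may be technical.

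The p53 protein is kept low by MDM2, a ubiquitin ligase that p53 itself induces, and is stabilised when kinases of the DNA damage response act on it. Stabilised p53 binds response elements near its target genes and raises their transcription. The targets halt the cell cycle (CDKN1A, BTG2), promote cell death (BBC3, FAS), repair DNA and handle stress (RRM2B, SESN1), or feed back on p53 (MDM2). EU-seq reads RNA made during the labelling time, so it follows the rate of synthesis more closely than the amount of stored mRNA.

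Values are the deposited signal per gene, summed over the whole gene span and brought to a common scale between libraries. They are not read counts, and the depth in reads is unknown. Deposited totals lay between 61135244 and 93113007 per library. The summed signal of 7 colorectal epithelial markers lay between 58246 and 65325 per library, while 10 markers of blood, endothelial, fibroblast and liver cells summed to between 960.4 and 1541. The summed markers of other cell types were 960.4 and 1151 in control and 1303 and 1541 in auxin, most of it COL1A1, with a fitted value above 0 for 7 of the 8 that passed the filter. Their part in the results was not tested. Of the epithelial markers, 5 of 7 had a fitted value below 0. The other 2, CDH1 and CDX2, were at 0.55 and 0.42 on the log2 scale, and both auxin libraries of CDH1 lay above both controls. None of the 17 markers was at 0 in all 4 libraries.

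None of the 10 genes passed the threshold of an adjusted p under 0.05 in limma's test over 39464 genes, of which 0.732% passed. At an unadjusted p under 0.05 there were 2 of 10, both higher with auxin, CDKN1A and TP53I3, against 10.2% of all genes tested in either direction, 4.75% higher and 5.47% lower. The fitted value was above control for 9 of the 10 genes, with a median log2 fold change of 0.20, beside 51.3% of all genes and a median of 0.0089. Without control replicate 2 or without auxin replicate 1 it was above control for 7 of 10, with a median of 0.074 or 0.084, and without control replicate 1 the median was 0.38. In 5 of 10 genes, CDKN1A, MDM2, SESN1, TP53I3 and ZMAT3, both auxin libraries lay above both control libraries, which held for 18.6% of all genes tested. No gene of the 10 had both auxin libraries below both controls, beside 19.6% of all genes tested. On the deposited scale, without further scaling, both auxin libraries were above both controls in 2 of 10 (CDKN1A and TP53I3), beside 8.51% of all genes. With 2 libraries against 2, an exact permutation test of a single gene cannot go below p = 0.333.

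**Figure D1:**
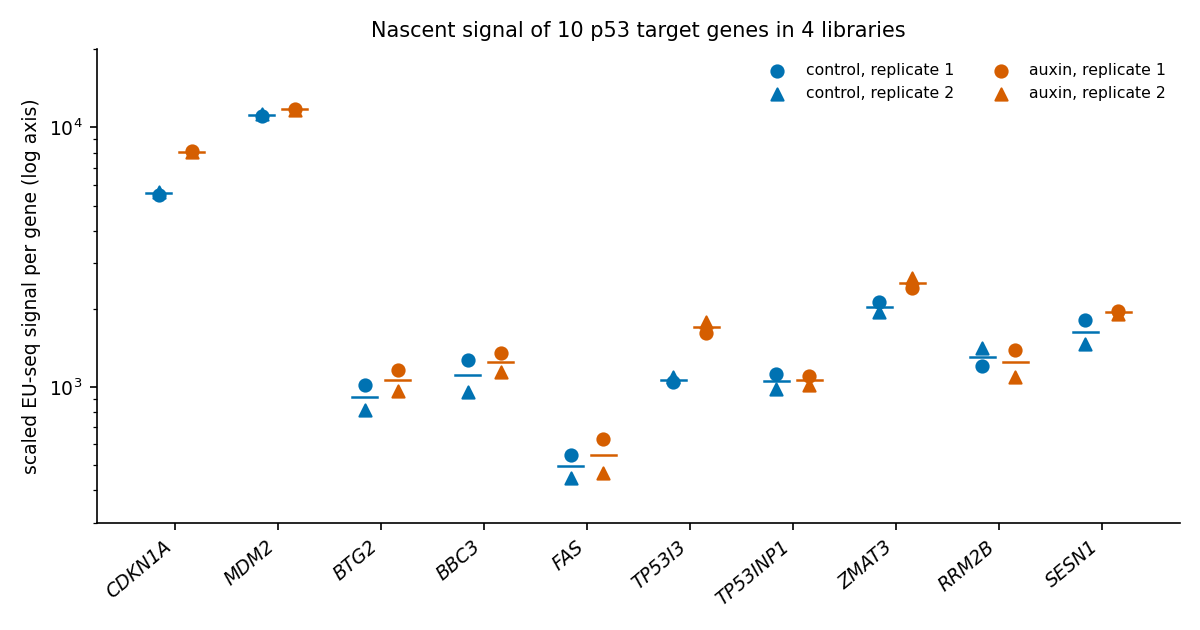
Scaled EU-seq signal per gene (log axis) of the 10 p53 target genes; each point is 1 library, circles are replicate 1, triangles are replicate 2, and short lines are group means. CDKN1A and TP53I3 stand apart between groups, at 5576 against 8066 and 1068 against 1698, while MDM2 has the most signal summed over the gene span in both groups.

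Upstream sequence is shown for the 2 genes with an unadjusted p under 0.05 and for the p53-responsive promoter of MDM2, the best known feedback site of the pathway. The sequences come from RefSeq (GRCh38.p14), where 8 of the 10 genes were matched, with 16 start windows. Each line gives the 250 bases before an annotated transcript start, and capitals mark every 4-letter core of p53 binding elements, which is C, then 2 letters that are each A or T, then G. Binding elements farther from these starts were not covered, so the counts and searches below describe the windows alone.
CDKN1A, chr6:36678464-36678713, plus strand: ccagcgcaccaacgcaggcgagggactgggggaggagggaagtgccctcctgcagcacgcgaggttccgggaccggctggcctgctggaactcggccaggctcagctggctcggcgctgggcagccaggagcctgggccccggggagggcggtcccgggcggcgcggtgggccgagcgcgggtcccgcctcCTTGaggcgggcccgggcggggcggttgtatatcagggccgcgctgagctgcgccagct
TP53I3, chr2:24084835-24085084, minus strand: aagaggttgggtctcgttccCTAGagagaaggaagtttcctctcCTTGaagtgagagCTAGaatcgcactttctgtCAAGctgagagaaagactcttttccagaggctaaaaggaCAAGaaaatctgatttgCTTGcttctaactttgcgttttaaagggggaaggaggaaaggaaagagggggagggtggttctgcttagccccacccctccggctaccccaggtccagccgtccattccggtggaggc
MDM2, intronic promoter, chr12:68808767-68809016, plus strand: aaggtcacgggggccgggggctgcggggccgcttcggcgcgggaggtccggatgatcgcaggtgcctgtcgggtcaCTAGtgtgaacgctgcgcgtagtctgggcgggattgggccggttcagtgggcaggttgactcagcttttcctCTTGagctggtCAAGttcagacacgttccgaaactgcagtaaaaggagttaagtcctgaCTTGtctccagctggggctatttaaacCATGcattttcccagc
These cores numbered 1 in CDKN1A, 6 in TP53I3 and 5 in the MDM2 window, against a median of 3 over 34943 windows, of which 92.8% held at least 1. The windows differ in base composition, with 27 CG pairs in CDKN1A, 17 in MDM2 and 6 in TP53I3 against a median of 11. Pairs of cores with 6 bases between them were searched on both strands over the whole windows of 300 bases. In a search added after the windows were read, any core followed after 6 bases by any core was in 2 of the 16 windows, 1 of FAS and 1 of SESN1, and in 4.78% of all windows. Of the pairs that hold a CATG, the core CATG followed after 6 bases by a second CATG was in 0 of the 16 windows and in 0.375% of all windows. With CTTG as the later core, which on the other strand reads CAAG before CATG, the pair was in 0 of 16 and in 0.704% of all. With CTTG as the earlier core, which on the other strand reads CATG before CAAG, it was in 0 of 16 and in 0.584% of all. The letters TATAAA were also in 0 of 16, against 11.6% of all.

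The MDM2 window holds a longer match that was chosen after the window was read, CAAG followed after 6 bases by CACG, found in 2 of the 16 windows (overlapping starts of MDM2) and in 0.444% of all. Of its 4-letter ends CAAG is a core as defined above and CACG is not. It is printed with 3 flanking bases on each side, with the letters searched in capitals.
MDM2 stretch, chr12:68808923-68808942, plus strand: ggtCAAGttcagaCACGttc
The stretch begins 94 bases before the transcript start at 68809017, and the window itself begins inside the gene, whose first base in the table is 68808177. The CDKN1A start used here lies 2254 bases inside the gene span of the table, and that of TP53I3 lies 381 bases inside.

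CDKN1A encodes p21, the inhibitor of cyclin-dependent kinases through which p53 halts the cell cycle (ENSG00000124762, GRCh38 chromosome 6, 36676460 to 36687337, plus strand). Its scaled signal was 5501 and 5651 in control replicates 1 and 2, and 8119 and 8013 in auxin replicates 1 and 2. After scaling the groups did not overlap, and the gap between them was many times the distance between replicates. Group means were 5576 ± 106 and 8066 ± 74.8 (SD, n = 2 each). The fitted difference was 0.53 on the log2 scale (SE 0.12, 95% interval 0.26 to 0.81), or 1.45-fold. Its unadjusted p was 0.00146 and its limma adjusted p over all genes 0.102, so it did not pass. Set against either control, either auxin library was higher by 0.50 to 0.56 on the log2 scale. On the deposited scale CDKN1A was at 5497 and 5733 in control and 6623 and 9691 in auxin. There the groups did not overlap either, but the auxin libraries lay further apart than the gap between the groups.

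The lncRNA gene DINOL lies inside the CDKN1A span on the opposite strand, just before the CDKN1A start shown above, and its transcript is known to bind and stabilise p53. The scaled signal over the DINOL span was low, at 10.2 and 15.3 in control and 9.81 and 3.37 in auxin. Per kb of span this was 13.4 in control, against 513 over CDKN1A as a whole. The fitted difference for DINOL was -0.98 on the log2 scale (95% interval -2.62 to 0.67, limma adjusted p = 0.78), an interval that spans 0. The deposited values do not separate strands, so the part of this signal that comes from CDKN1A cannot be told apart.

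MDM2 (ENSG00000135679, chromosome 12, 68808177 to 68850686, plus strand) carried the most signal of the 10 genes when summed over the gene span, without regard to length. Its scaled signal was 11041 and 11223 in control and 11819.8 and 11657 in auxin. Both auxin libraries lay above both control libraries, but by a small margin. The log2 fold change was 0.077 (SE 0.11, 95% interval -0.17 to 0.33, limma adjusted p = 0.933), so the interval does not reach beyond 1.25-fold higher. On the deposited scale the groups overlapped, with 11033 and 11385 in control and 9641 and 14098 in auxin. The narrow interval of MDM2 ends below the fitted value of CDKN1A, although the difference between these 2 genes was not tested. Other tested genes lie inside the MDM2 span, and their part of its value cannot be told apart.

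BTG2, an antiproliferative cofactor of mRNA deadenylation (ENSG00000159388, chromosome 1, 203305519 to 203309602, plus strand), had 1013 and 814 in control and 1157 and 963 in auxin. The groups overlapped, since auxin replicate 2 lay below control replicate 1. The log2 fold change was 0.22 (SE 0.19, 95% interval -0.21 to 0.65, limma adjusted p = 0.837). Leaving out 1 library moved BTG2 between 0.059 (without control replicate 2) and 0.39 (without control replicate 1).

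Among the genes tied to cell death, TP53I3 had the largest fitted difference of all 10 members. It encodes a quinone oxidoreductase also called PIG3, linked to oxidative stress (ENSG00000115129, chromosome 2, 24077433 to 24085215, minus strand). Its scaled signal was 1045 and 1089.9 in control and 1618 and 1778 in auxin. After scaling the groups were well separated, and the lowest auxin library was above the highest control library. Group means were 1068 ± 31.5 and 1698 ± 113 (SD, n = 2 each). The fitted difference was 0.67 on the log2 scale (SE 0.16, 95% interval 0.30 to 1.03), or 1.59-fold. Its unadjusted p was 0.00222 and its limma adjusted p 0.129, so it too did not pass. On the deposited scale TP53I3 was at 1045 and 1106 in control and 1320 and 2150 in auxin. There the groups did not overlap, but the distance between the auxin libraries was larger than the gap between the groups.

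The TP53I3 span lies wholly inside that of FAM228B, on the opposite strand, of which it takes up 8.39%. The table does not separate strands: of 13 pairs of genes with the same span on opposite strands, 9 had signal, and all 9 held equal values in all 4 libraries. FAM228B with TP53I3 in it had group means of 2657 ± 80.7 and 3404 ± 34.8 (SD, n = 2 each), with a log2 fold change of 0.36 and a limma adjusted p of 0.398. After the TP53I3 value was subtracted, the rest of FAM228B was at 1669 and 1510.4 in control and 1761 and 1651 in auxin. The groups overlap there, with a ratio of the means of 1.07. This rest still holds PFN4, whose span also lies inside FAM228B, with group means of 250 in control and 186 in auxin. Per kb, TP53I3 stood at 137 in control and 218 in auxin, and the rest of FAM228B at 18.7 and 20.1. The larger ratio was thus in the TP53I3 span, with no test of the difference from the rest of FAM228B.

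The same layout at TP53INP1 gave a different picture. TP53INP1 (ENSG00000164938, chromosome 8, 94925972 to 94949378, minus strand), a stress protein that promotes p53 activity and autophagy, had 1123 and 984 in control and 1103 and 1016 in auxin, so the groups overlapped fully. The log2 fold change was 0.0097 (SE 0.18, 95% interval -0.38 to 0.40, limma adjusted p = 0.997). Its span lies inside NDUFAF6, a gene for assembly of mitochondrial complex I on the opposite strand, which had group means of 10772 ± 211 and 7608 ± 491 (SD, n = 2 each), with a log2 fold change of -0.50 and a limma adjusted p of 0.118. Outside TP53INP1, the rest of NDUFAF6 stood at 69.7 per kb in control and 46.9 in auxin, and TP53INP1 itself stood at 45.0 and 45.3 per kb. The TP53INP1 span therefore carried no more signal per kb than its surroundings, and the part of its value that comes from NDUFAF6 cannot be told apart.

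BBC3 encodes PUMA, a BH3-only protein that triggers mitochondrial apoptosis (ENSG00000105327, chromosome 19, 47220824 to 47232766, minus strand). Its scaled signal was 1274 and 955 in control and 1348 and 1146 in auxin. The groups overlapped, as the control libraries differed by 0.42 on the log2 scale, more than the fitted auxin difference of 0.17 (SE 0.20, 95% interval -0.26 to 0.61, limma adjusted p = 0.89). FAS, a death receptor of the cell surface (ENSG00000026103, chromosome 10, 88990798 to 89017059, plus strand), had the least summed signal of the 10, at 547 and 444 in control and 629.9 and 466 in auxin. Here too the groups overlapped, and the log2 fold change was 0.14 (SE 0.22, 95% interval -0.36 to 0.63, limma adjusted p = 0.945). The FAS span partly overlaps genes on the opposite strand, and their part of its value cannot be told apart. Without auxin replicate 1 the FAS value turned to -0.073, and without control replicate 2 BBC3 stood at -0.036 and FAS at -0.013.

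ZMAT3, a zinc finger protein that binds RNA and shapes splicing in the p53 response (ENSG00000172667, chromosome 3, 179017223 to 179071809, minus strand), had 2116 and 1942 in control and 2409 and 2633 in auxin. The groups did not overlap. Group means were 2029 ± 123 and 2521 ± 158 (SD, n = 2 each). The fitted difference was 0.31 on the log2 scale (SE 0.15, 95% interval -0.027 to 0.65), or 1.24-fold. The unadjusted p was 0.0677 and the limma adjusted p 0.541. Its nearest tested protein-coding genes on both sides, KCNMB2 (gap 173 kb) and PIK3CA (gap 76.5 kb), had fitted values of 0.30 and 0.29, close to that of ZMAT3, with limma adjusted p-values of 0.633 and 0.716.

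Of the genes for repair and metabolism, SESN1 encodes sestrin 1, an inhibitor of mTORC1 signalling (ENSG00000080546, chromosome 6, 108986437 to 109094819, minus strand). Its scaled signal was 1804 and 1458 in control and 1958 and 1912 in auxin. The auxin libraries lay above both controls, by less than the distance between the controls. The log2 fold change was 0.25 (SE 0.17, 95% interval -0.12 to 0.63, limma adjusted p = 0.722). Leaving out control replicate 2 or 1 moved SESN1 to 0.10 or 0.42. RRM2B, the p53-inducible small subunit of ribonucleotide reductase, which supplies nucleotides for repair (ENSG00000048392, chromosome 8, 102204502 to 102238961, minus strand), had 1203 and 1416 in control and 1393 and 1096 in auxin. The groups overlapped, and RRM2B alone of the 10 had a fitted value below 0, at -0.079 (SE 0.19, 95% interval -0.50 to 0.34, limma adjusted p = 0.969). Its sign turned when control replicate 2 (0.038) or auxin replicate 2 (0.093) was left out.

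**Figure D2:**
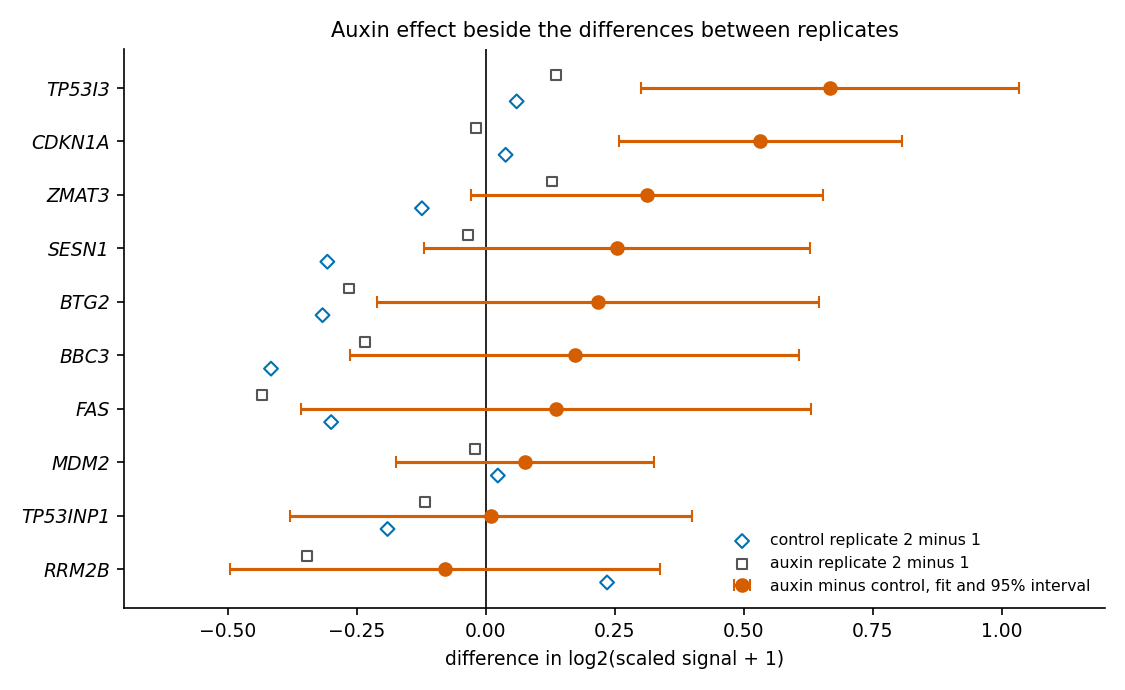
Difference in log2(scaled signal + 1) for each of the 10 genes: filled circles with bars are the fitted auxin minus control difference and its 95% interval, and open symbols are the differences between replicates of 1 group. The intervals of CDKN1A (0.26 to 0.81) and TP53I3 (0.30 to 1.03) lie above 0, and those of the other 8 genes include 0.

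The differences between replicates were of the same order as most of these values. Across the 10 genes the median absolute log2 difference was 0.21 between control replicates and 0.13 between auxin replicates, beside 0.20 for the fitted auxin difference. Control replicate 2 was below control replicate 1 in 6 of 10 genes, and auxin replicate 2 was below auxin replicate 1 in 8 of 10. CDKN1A and MDM2 agreed most closely between replicates, within 0.039 on the log2 scale in both groups. The median of the 10 genes, as a log2 difference from their control means, was 0.28 in auxin replicate 1 and 0.076 in auxin replicate 2, beside 0.078 and -0.078 in control replicates 1 and 2. Auxin replicate 2 was thus level with control replicate 1 by this measure.

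Levels can be ordered only per length, and the signal per kb of whole gene span ran over a wide range. In control, CDKN1A was highest at 513 ± 9.74 per kb, followed by MDM2 at 262 ± 3.04, BTG2 at 224 ± 34.5 and TP53I3 at 137 ± 4.05 (SD, n = 2 each). BBC3 was at 93.3 ± 18.9 per kb, TP53INP1 at 45.0 ± 4.19, RRM2B at 38.0 ± 4.38 and ZMAT3 at 37.2 ± 2.25. FAS at 18.9 ± 2.76 and SESN1 at 15.05 ± 2.26 were lowest. In this order only RRM2B and ZMAT3 had overlapping library values. With auxin, CDKN1A was at 742 ± 6.88 per kb and TP53I3 at 218 ± 14.5, and ZMAT3, at 46.2 ± 2.90, stood above RRM2B. In auxin the neighbours in the order with overlapping libraries were MDM2 and BTG2, ZMAT3 and TP53INP1, and FAS and SESN1.

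A further 30 known p53 targets were read beside the 10. Of these, 1 passed, GDF15 (2 were higher and 2 lower at an unadjusted p under 0.05), and the median log2 fold change was -0.054. Of all genes tested, 0.732% passed, and 4.75% were higher and 5.47% lower at an unadjusted p under 0.05, with a median of 0.0089. GDF15, a secreted stress cytokine, was at 1442 and 1314 in control and 3361 and 2880.4 in auxin, and rose by 1.18 on the log2 scale (SE 0.16, limma adjusted p = 0.0107). On the deposited scale its value was 1.16, with a limma adjusted p of 0.629, so the call was lost there. SESN2, a sestrin that also responds to other stress pathways, was at 1484 and 1254 in control against 2236 and 1708 in auxin (fitted 0.52, limma adjusted p = 0.326). PLK2, a polo-like kinase, was lower, with 3309 and 5569 in control against 2831 and 2828 in auxin (fitted -0.60, limma adjusted p = 0.325), and its control libraries stood far apart. Without control replicate 1 PLK2 was at -0.97, and without control replicate 2 it was at -0.23. Each of these fits leaves 1 control library, which has no spread of its own. PIDD1, a death-domain protein named after its value was seen, was the other lower gene, at -0.47 (limma adjusted p = 0.404).

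By role, the apoptosis genes of this list had a median of -0.19, with 4 of 13 above 0 and 0 of 13 past the threshold (1 at an unadjusted p under 0.05). The arrest and feedback genes had a median of 0.083, with 4 of 7 above 0 and 1 past the threshold, GDF15. The repair and metabolism genes had a median of -0.0082, with 5 of 10 above 0 and 0 of 10 past the threshold in limma (1 at an unadjusted p under 0.05). Beside these counts, 0.732% of all genes tested passed, 10.2% were at an unadjusted p under 0.05 and 51.3% were above 0. Both auxin libraries lay above both controls in 6 of the 30 and below both in 8, beside 18.6% and 19.6% of all genes tested.

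Genes that act on p53 from upstream were the next list. Of 12 such regulators, 0 passed in limma, 3 had an unadjusted p under 0.05, all lower, and the median was -0.12 with 2 above 0. Over all genes tested 0.732% passed, 5.47% were lower at an unadjusted p under 0.05, and 51.3% were above 0. The 3 lower genes were kinases of the DNA damage response. PRKDC, the DNA-dependent protein kinase, had group means of 34977 ± 2576 and 27033 ± 907 for control and auxin (SD, n = 2 each), with a log2 fold change of -0.37 and a limma adjusted p of 0.174. ATR, which senses stalled replication forks, had 6988 ± 75.1 and 5267 ± 243 (log2 fold change -0.41, limma adjusted p = 0.237). CHEK1, the kinase downstream of ATR, had 5764 ± 1519 and 4018 ± 891 (log2 fold change -0.51, limma adjusted p = 0.4). Its value was -0.24 without control replicate 2, -0.28 without auxin replicate 1 and -0.78 without control replicate 1.

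Genes that p53 represses through p21 and the DREAM complex, a repressor of cell cycle genes, were the remaining list. None of the 16 passed in limma, 1 was at an unadjusted p under 0.05, against 10.2% of all genes, and the median was 0.11 with 13 above 0. Over all genes the median was 0.0089, with 51.3% above 0. Without control replicate 1 the median of the 16 was -0.082. The gene with the smallest p was MYBL2, a cell cycle transcription factor, at 11777 and 15715 in control and 7429.9 and 11848 in auxin, with overlapping groups (fitted -0.54, limma adjusted p = 0.381). A single library moved MYBL2 widely: it was at -0.87 without auxin replicate 2, at -0.19 without auxin replicate 1 and at -0.33 without control replicate 2. CDC25C, a phosphatase that starts mitosis, and CDC20, an activator of the anaphase-promoting complex, followed, at 0.27 and 0.20 (limma adjusted p = 0.748 and 0.769).

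**Figure D3:**
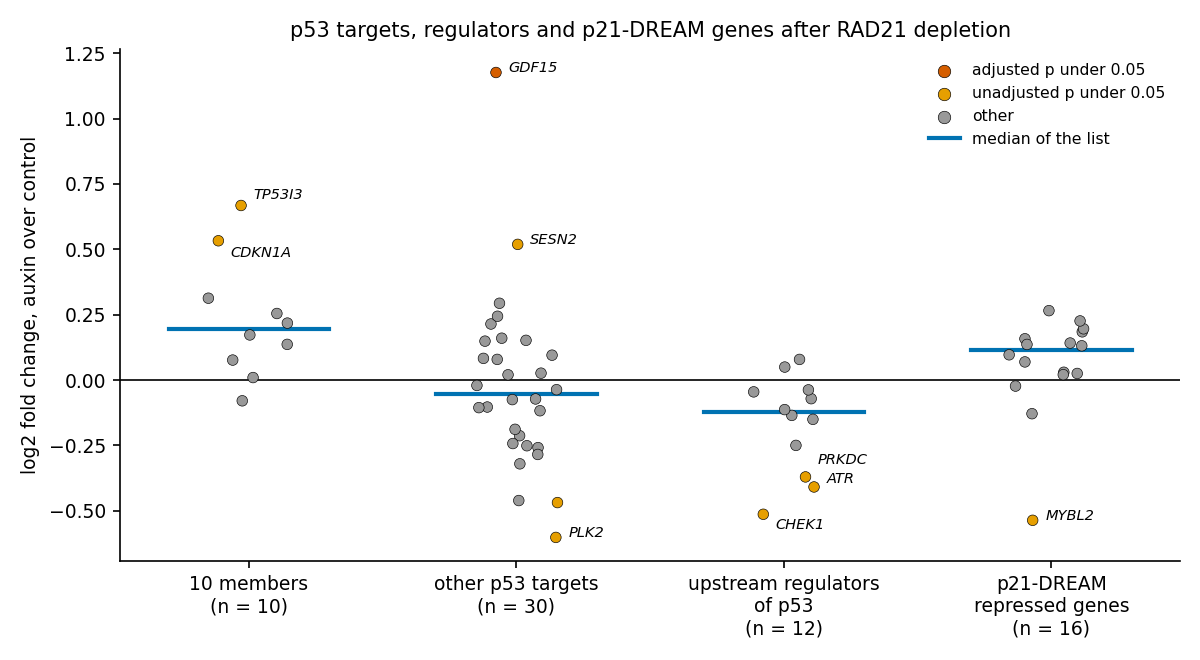
Log2 fold change of auxin over control for the 10 members, 30 other p53 targets, 12 upstream regulators of p53 and 16 genes repressed through p21 and DREAM; each point is 1 gene, blue lines are medians, and colours give the limma p. GDF15 is the single gene with an adjusted p under 0.05, and the medians are 0.20, -0.054, -0.12 and 0.11.

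Cohesin organises chromosomes into domains that neighbouring genes share, so the surroundings of each member were read as well. Of 11 tested genes overlapping a member and 20 nearest protein-coding genes on either side, 0 passed in limma and 2 of each kind were at an unadjusted p under 0.05, against 10.2% of all genes. The median log2 fold change was 0.097 for the overlapping and -0.0087 for the flanking genes. Values do not separate strands, so the overlapping genes can share signal with the members. The 2 overlapping genes with an unadjusted limma p under 0.05, FAM228B and NDUFAF6, contain TP53I3 and TP53INP1. MIR3190 and MIR3191, both inside BBC3, held equal values in all 4 libraries, so the 11 genes are not separate signals. The genes beside CDKN1A were SRSF3, a splicing factor 70.9 kb away, at 0.11 (95% interval -0.21 to 0.44), and RAB44, 10.5 kb away, at -0.0051 (-0.74 to 0.73). Beside TP53I3, SF3B6, 1.11 kb away, was at -0.17 (-0.52 to 0.18). PFN4, 29.6 kb away and inside the FAM228B span, was at -0.43 (-0.93 to 0.082). Fitted values of these 4 flanking genes were thus below those of CDKN1A and TP53I3, with no test of the difference.

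**Figure D4:**
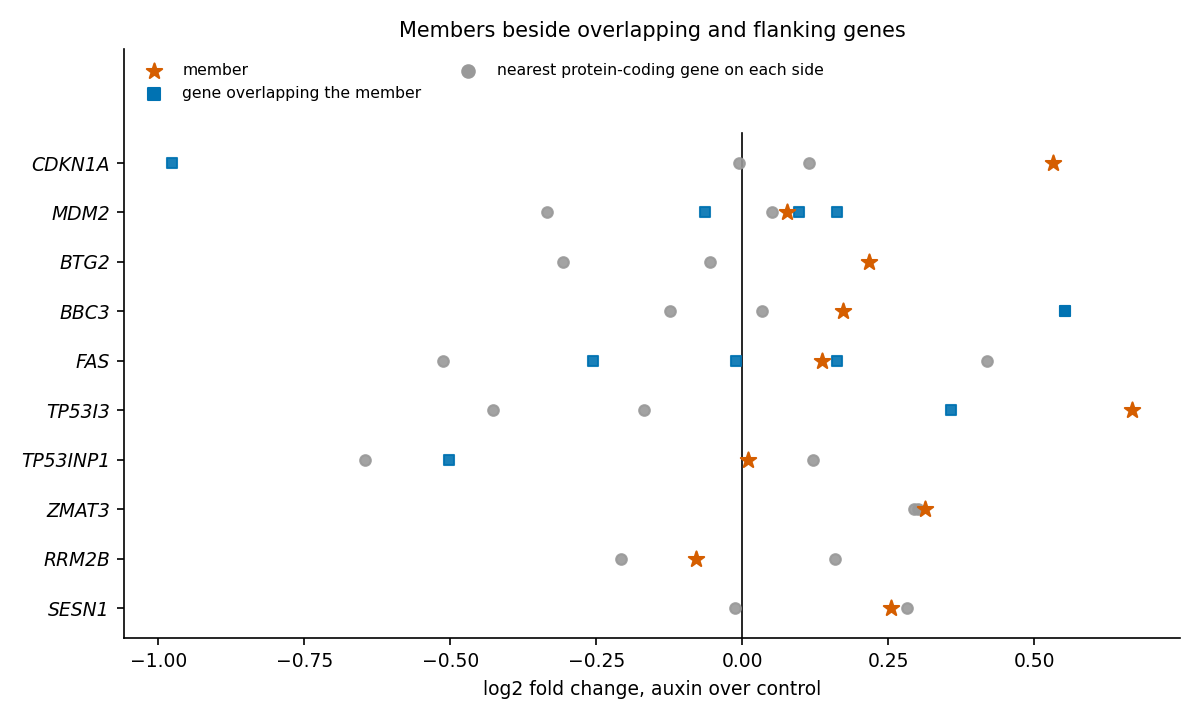
Log2 fold change of auxin over control for each of the 10 members (stars), genes whose spans overlap it (squares) and the nearest tested protein-coding gene on each side (circles). CDKN1A (0.53) and TP53I3 (0.67) lie to the right of all their neighbours, and ZMAT3 (0.31) lies beside its own at 0.30 and 0.29.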

How the data were processed

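EU-seq was measured in 2 control and 2 auxin libraries, grouped and numbered by their titles. The authors deposited a signal per gene and library in 1 table, scaled by a factor per library that the labels do not explain. Fly S2 RNA was mixed in before capture, per the labels' protocols; whether it set that factor is not stated. The kit keeps strand, but the deposited values do not. The submitters' processing notes name Trimmomatic 0.39, Bowtie2 2.4.5, deepTools 3.5.1, hg38 and dm6 without their roles. The counter and the scaling are not given in the sources used here. One misspelt control column was assigned to control replicate 2. Low values are whole multiples of a step, but long genes rarely hold a single step, so no count test was run.

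The filter kept a gene if 2 or more libraries reached 10, rescaled to the median library total, and its sum over libraries reached 15. Trimmed means of M-values (30% and 5% trimmed), written out in R, gave divisors of 0.999, 1.01, 0.816 and 1.21 (control 1, 2, auxin 1, 2). This removes any common change in nascent RNA. The log2(value + 1), whose fold changes understate those of low genes, was fitted with limma 3.58.1 (lmFit, eBayes with trend; R 4.3.3), with Benjamini-Hochberg adjustment over 39464 genes at 0.05. The procedure was tested on simulated data. Tables and figures used Python 3.11.15, pandas 2.3.3 and matplotlib 3.10.9. Gene starts are printed 1-based.

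The 10 genes and the lists were chosen with earlier results of these data known, so lists are described by counts and medians. One gene of the list of regulators is not reported here. Named besides the 10 were the 3 genes of each list with the smallest p and all called ones, and overlapping or flanking genes that were called. Exceptions are named for context: PIDD1, DINOL, FAM228B, NDUFAF6, MIR3190, MIR3191, the markers COL1A1, CDH1 and CDX2, and the neighbours of CDKN1A, TP53I3 and ZMAT3. Alternatives were median-ratio scaling, library totals, the deposited scale, pseudocounts of 0.1 and 10, a mean of 50 or more, no filter, the replicate block and leaving out each library.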

Additional observations from a re-analysis of the deposited data

How the results depend on the processing

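With 2 libraries a group and unknown depth, precision rests on the spread between replicates, and the intervals of 8 of the 10 genes include 0. Under the 7 alternatives of scaling, pseudocount and filter, 0 of 10 genes passed, beside 0.139% to 0.820% of all genes tested. Among the 10, the one sign that turned there was that of TP53INP1, at -0.0099 on the deposited scale. On that scale 55 genes were called in place of 289 over the whole table, 0 of the 30 other p53 targets were called, and GDF15 kept a log2 fold change of 1.16 (limma adjusted p = 0.629); the cause was not tested. CDKN1A ranged from 0.51 to 0.57 and TP53I3 from 0.65 to 0.70 over these 7, with limma adjusted p-values of at least 0.0869 and 0.109.

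With the replicate block, 4273 genes were called, or 10.8% of those tested. Among them were 2 of the 10, CDKN1A (limma adjusted p = 9.14e-06) and TP53I3 (8.31e-06), 4 of the 30 other targets, 3 of the 12 regulators and 1 of the 16 DREAM genes. Nothing in the labels ties equal numbers to a common culture or date, and 2 pairs cannot settle it. The replicate differences correlated between groups across genes (Pearson's r 0.231, and 0.462 at a mean of at least 50). The fits with the block, on the deposited scale and without auxin replicate 1 or 2 have infinite prior degrees of freedom, so they take each gene's spread from the trend alone.

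Leaving out each library in turn, 132 to 681 genes were called. None of the 10 passed there: their median ranged from 0.074 to 0.38, CDKN1A from 0.52 to 0.55 and TP53I3 from 0.60 to 0.74. Signs turned for BBC3 (-0.036 to 0.39), FAS (-0.073 to 0.35), TP53INP1 (-0.086 to 0.11) and RRM2B (-0.24 to 0.093). The other targets had medians of -0.11 to 0.036, and the DREAM genes had medians of -0.082 to 0.24.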
